A study of Homo sapiens with 4 samples.

Results

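ABCA1 and 9 other genes for ATP-binding cassette (ABC) transporters (ABCA2, ABCA3, ABCA7, ABCB1, ABCC1, ABCC3, ABCC4, ABCG1 and ABCG2) were followed in LNCaP-derived cells with and without an inducible methyl-CpG-binding activator. They are 10 of the 19483 genes paired with a probe, and 14 of the 34127 probes on the array match them by an accession mapped to the symbol. The 10 genes were selected on the tetracycline-related changes measured on these same 4 arrays, so these changes are given as a description, with no test, and nothing is supported with them. LNCaP is a prostate cancer cell line. TR9-MeTA14 and TR15-MeTA5 are stable lines made from it in separate steps: both carry a Tet repressor (pcDNA6/TR) and a tetracycline-inducible, FLAG-tagged fusion of the NFκB activation domain with a methyl-CpG-binding domain, NFκB (AD)-MBD. Such a fusion is built to bring an activation domain to methylated DNA, an approach called methyl-CpG targeted transcriptional activation (MeTA). Each line was measured without tetracycline (-Tet) and after 4 days with it (+Tet), with 1 array per condition. No array of Tet-treated cells without the fusion gene was analysed here, so effects of tetracycline and of the fusion protein cannot be told apart, and each line is a single stable transfectant.

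ABC transporters use ATP to move lipids, drugs or conjugates across membranes. ABCA1 and ABCG1 export cholesterol and phospholipid to lipoprotein particles and are textbook targets of the liver X receptors (LXR), sterol-activated nuclear receptors that pair with retinoid X receptors. ABCA2, ABCA3 and ABCA7 handle lipids in endosomes, lamellar bodies and the cell surface. ABCB1, ABCC1, ABCC3, ABCC4 and ABCG2 are exporters with broad substrate ranges, known in cancer cells for removing drugs.

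Since the fusion protein is directed to methylated CpG, the windows around the transcription starts were read for CpG content. RefSeq (GRCh38.p14) windows of 300 bases, 250 before and 50 after the start, were at hand for 7 of the 10 genes, with 13 windows in all. ABCC1, ABCC3 and ABCG1 had no entry. The windows of ABCA1, below background without tetracycline and detected with it in both lines, of ABCA7, the largest increase measured on all 4 arrays in TR9-MeTA14, and of ABCC4, the largest decrease there, are shown 5′ to 3′ along the gene, with each CpG in capitals.
ABCA1, chr9:104928106-104928405, minus strand: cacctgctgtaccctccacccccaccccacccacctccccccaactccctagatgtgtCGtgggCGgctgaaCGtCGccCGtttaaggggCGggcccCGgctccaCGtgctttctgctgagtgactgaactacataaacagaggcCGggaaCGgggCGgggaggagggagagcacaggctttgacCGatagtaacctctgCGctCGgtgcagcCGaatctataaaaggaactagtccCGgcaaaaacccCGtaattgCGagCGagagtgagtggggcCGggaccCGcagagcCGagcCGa
ABCA7, chr19:1039857-1040156, plus strand: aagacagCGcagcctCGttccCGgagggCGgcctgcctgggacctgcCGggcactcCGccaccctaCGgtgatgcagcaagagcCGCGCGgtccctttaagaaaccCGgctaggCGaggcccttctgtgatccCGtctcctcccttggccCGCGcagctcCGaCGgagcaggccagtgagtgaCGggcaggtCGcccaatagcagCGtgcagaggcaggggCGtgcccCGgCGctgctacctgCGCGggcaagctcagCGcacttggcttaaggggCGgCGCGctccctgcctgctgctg
ABCC4, chr13:95301402-95301701, minus strand: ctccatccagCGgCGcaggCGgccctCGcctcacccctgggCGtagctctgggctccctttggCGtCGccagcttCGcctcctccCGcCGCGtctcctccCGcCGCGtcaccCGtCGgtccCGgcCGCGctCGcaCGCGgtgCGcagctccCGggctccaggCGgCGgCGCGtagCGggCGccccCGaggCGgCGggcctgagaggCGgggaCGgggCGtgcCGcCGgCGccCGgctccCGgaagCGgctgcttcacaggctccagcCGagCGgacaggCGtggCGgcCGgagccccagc
The ABCA1 window holds 23 CpG, the ABCA7 window 29 and the ABCC4 window 47. The median over 35116 RefSeq windows was 14. Of them, 64.2% hold fewer CpG than the ABCA1 window, 75.8% fewer than that of ABCA7 and 97.6% fewer than that of ABCC4. The relation of the CpG count to the direction of change was not tested. ABCA2 has a window with 66 CpG and another with 16, and ABCA3 has 42. ABCG2, with 5 windows, ranges from 3 to 35 CpG, and ABCB1 has windows of 16 and 1. Every gene with an entry had at least 1 window above the median, which a gene with several windows reaches more easily. The share of all genes that do so was not counted, so nothing is read from this. The arrays and the windows give no methylation level, so which of these CpG were methylated was not measured here.

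**Figure D1:**
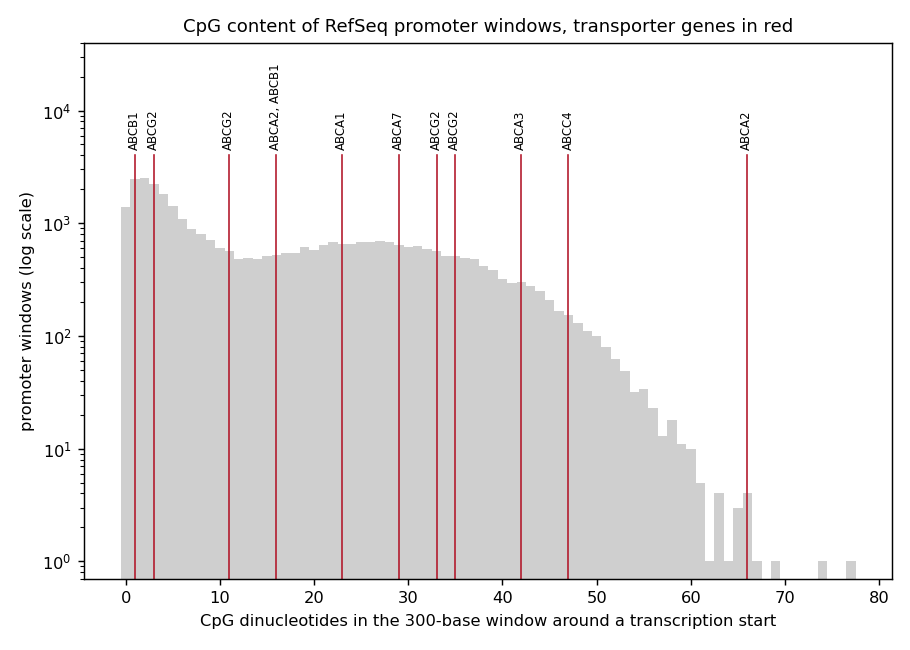
Number of RefSeq promoter windows (vertical axis, log scale) by the count of CpG in the 300-base window (horizontal axis), over 35116 windows, with red lines at the windows of the 7 transporter genes that had an entry. The lines spread from 1 CpG at ABCB1 to 66 at ABCA2.

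Sequence motifs were searched on both strands of the same windows. The letters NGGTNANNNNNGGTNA, a direct repeat of a hexamer with 4 bases between the copies, of the kind that LXR and its partner bind, were found in 0.624% of all windows and in 1 of the 13 transporter windows. This was the ABCA1 window, with the site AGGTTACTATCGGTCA on the strand opposite to the one printed, covering bases 182 to 197 of the window. The GC box GGGCGG was found in 45.0% of all windows and in 6 of the 13, and it occurs 3 times in the ABCA1 window. The E-box CACGTG was found in 7.26% of all windows and in 3 of the 13, 1 of them that of ABCA1 and the others the overlapping windows of ABCG2. None of the matches in the ABCA1 window overlap each other. A match describes the letters alone.

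Levels were read as the processed signal, the background-subtracted brightness of a spot, and changes as log2 differences after subtracting each array's 75th percentile. A probe that was not well above background on 1 array of a pair gives only a lower bound on the change. Between 20560 and 24217 of the probes were well above background per array, and no spot was saturated. Repeated spots on an array gave a log2 ratio an expected SD of 0.261 for signals under 50, 0.122 for 50 to 200 and 0.0768 above 200. This technical SD covers the error between spots of an array only. Error between arrays, such as that of labeling, hybridization or scaling, is left out. With 1 array per condition, the spread between cultures is unknown and no test within a line is possible. The luminal markers KLK3, KLK2, FOLH1, TMPRSS2, STEAP2, KRT8 and KRT18 were detected above background on every array, and the basal markers KRT5, KRT14 and TP63 on none. Of these 7 luminal markers, 4 were at least 2-fold lower with tetracycline in TR9-MeTA14 and 0 in TR15-MeTA5. Over all genes, the shares were 15.1% and 2.21%. In TR15-MeTA5, the brighter KLK2 probe, which was counted, was 1.98-fold lower and the dimmer one 2.95-fold lower. The part of these markers in the changes of the transporter genes was not tested. In RNA from whole cultures, fewer cells of a type and less RNA per cell cannot be told apart.

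In TR9-MeTA14 cells, tetracycline came with a 2-fold or greater increase of 7 of the 10 transporter genes and a decrease of 1, where the shares over 15075 genes compared were 16.8% and 15.1%. The 7 were ABCA1, ABCA2, ABCA3, ABCA7, ABCB1, ABCC3 and ABCG1, and the lower one was ABCC4. In TR15-MeTA5 cells, 3 of the 9 that could be compared were higher and 0 lower, against 9.78% and 2.21% of 14337 genes. ABCA1, ABCA2 and ABCC3 passed the cut-off upwards in both lines and none of the 9 did so downwards, against 8.21% and 0.838% of 13970 genes. The median log2 change of the transporter genes was 1.86 in TR9-MeTA14 and 0.39 in TR15-MeTA5, with medians over all genes of -0.06 and -0.16. Since these changes chose the genes, nothing is read from the counts or medians. ABCA1, ABCB1 and ABCC3 entered through a treated array alone, so they could only come out higher.

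**Figure D2:**
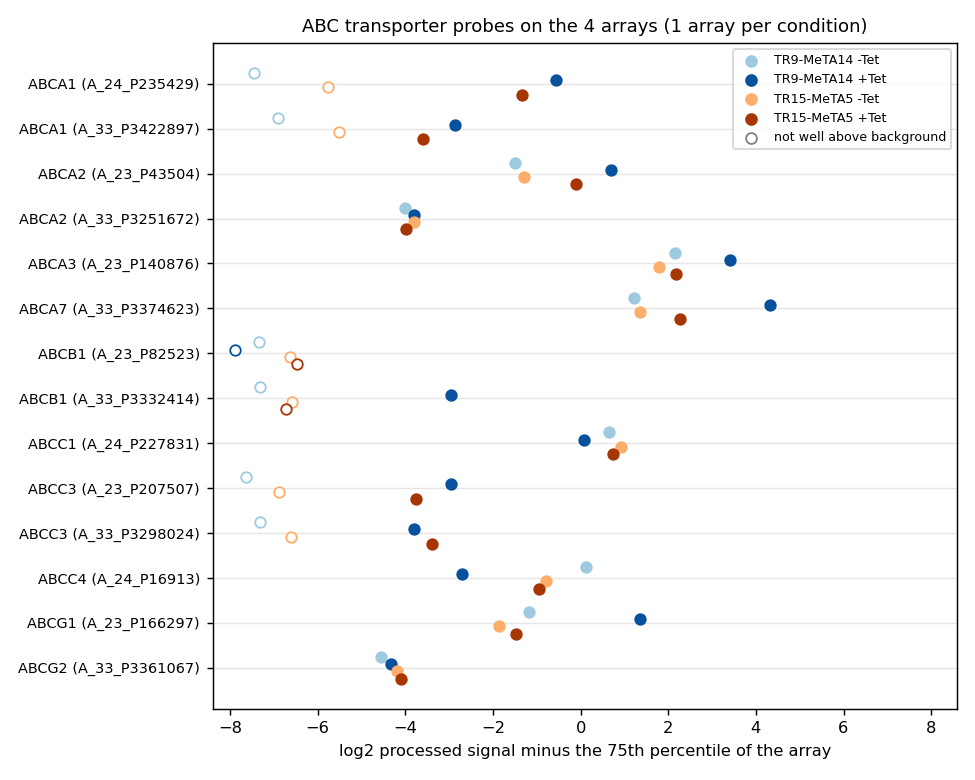
Log2 processed signal after subtracting the 75th percentile of the array (horizontal axis) for each of the 14 transporter probes (rows), with 1 point per array and open points where the probe was not well above background. Rows are probes with their own brightness and are to be read along the row, where the untreated ABCA1 points lie far left of the treated ones in both lines.

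The sterol exporters are given first. The ABCA1 probe A_24_P235429 had processed signals of 3.54 in TR9-MeTA14 -Tet, 524 in TR9-MeTA14 +Tet, 6.72 in TR15-MeTA5 -Tet and 215 in TR15-MeTA5 +Tet. It was well above background on the treated arrays of both lines and on neither untreated array. This gave at least 26.9-fold (log2 4.75) in TR9-MeTA14 and at least 9.44-fold (log2 3.24) in TR15-MeTA5. Of 15075 genes in TR9-MeTA14, 1.58% had a higher change or bound than this, and of 14337 genes in TR15-MeTA5, 2.09%. The other ABCA1 probe, A_33_P3422897, had signals of 5.12, 106.5, 8.01 and 45.1 in the same order. It showed the same pattern at a lower brightness, with bounds of 5.47-fold and 1.98-fold, the latter under the 2-fold cut-off. Between the treated arrays, the first probe was 0.76 and the second 0.72 (log2) higher in TR9-MeTA14 than in TR15-MeTA5, both more than 2 technical SD. The untreated lines cannot be ordered, both being below background.

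ABCG1, which exports cholesterol mainly to high-density lipoprotein, had signals of 274, 1975, 100.5 and 195 in the same order. All 4 arrays were well above background, and TR9-MeTA14 +Tet stood far above the rest. The change was 5.73-fold (log2 2.52) in TR9-MeTA14 and 1.31-fold (log2 0.39) in TR15-MeTA5. After scaling, the order of the levels was TR9-MeTA14 +Tet, TR9-MeTA14 -Tet, TR15-MeTA5 +Tet and TR15-MeTA5 -Tet, with each neighbour more than 2 technical SD apart. The treated TR15-MeTA5 array was thus below the untreated TR9-MeTA14 array, by 0.30 on the log2 scale. Without tetracycline, ABCA1 was below background in both lines, and ABCG1 was not.

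The genes whose levels over the 4 arrays were most like those of ABCA1 were SIX2, FOSL1 and EGFLAM, among 14457 genes well above background on at least 2 arrays. Likeness was the Euclidean distance of centred log2 levels over the 4 arrays, signals below background included, and it was 0.289, 0.373 and 0.513, respectively. SIX2, a homeobox transcription factor, had signals of 6.23, 796, 9.41 and 292 in the same order. EGFLAM, an extracellular matrix protein, had signals of 3.71, 581, 5.30 and 158. Both were well above background on the treated arrays alone. FOSL1, a subunit of the AP-1 transcription factor, had signals of 19.8, 2867, 35.9 and 876 and was well above background on all 4 arrays, so its changes of 115-fold and 16.5-fold were measured.

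Among the lipid transporters of the ABCA group, ABCA7 had the largest change measured on all 4 arrays in TR9-MeTA14, but not in TR15-MeTA5. ABCA7, tied to phospholipid export and phagocytosis, had signals of 1443, 15442, 945 and 2615 in TR9-MeTA14 -Tet, TR9-MeTA14 +Tet, TR15-MeTA5 -Tet and TR15-MeTA5 +Tet. The change was 8.50-fold (log2 3.09) in TR9-MeTA14 and 1.87-fold (log2 0.90) in TR15-MeTA5, and the treated arrays were above the untreated ones in both lines. The untreated lines differed by 0.14 on the log2 scale, within 2 technical SD. In TR15-MeTA5 the 2-fold cut-off was missed here and passed with spike-in scaling, at a log2 change of 1.27.

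ABCA2, an endosomal and lysosomal lipid transporter, had signals of 218, 1260.3, 149 and 505 at probe A_23_P43504. This gave 4.60-fold (log2 2.20) in TR9-MeTA14 and 2.29-fold (log2 1.19) in TR15-MeTA5, with both treated arrays above both untreated ones. The other ABCA2 probe, A_33_P3251672, had signals of 38.5, 55.8, 26.4 and 34.1. Its log2 changes were 0.20 and -0.19, both smaller than the technical SD of 0.261 at such low signals, and none of its 4 arrays stood apart. The ABCA2 probes therefore disagree, and the count of genes higher in both lines takes the brighter one.

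ABCA3, which loads surfactant lipids into lamellar bodies of the lung, had signals of 2753, 8195, 1269.65 and 2440.1. The change was 2.36-fold (log2 1.24) in TR9-MeTA14 and 1.30-fold (log2 0.38) in TR15-MeTA5. After scaling, TR9-MeTA14 +Tet was the highest array, while TR15-MeTA5 +Tet and TR9-MeTA14 -Tet lay within 2 technical SD of each other.

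The drug exporters did not share a direction. ABCB1, the multidrug transporter P-glycoprotein, was not well above background on any array at probe A_23_P82523, which has 10 spots. Its other probe, A_33_P3332414, had signals of 3.86, 100.3, 3.81 and 5.15. The treated TR9-MeTA14 array alone was well above background, which gave at least 5.15-fold there (log2 2.36) and no change to state in TR15-MeTA5. The ABCB1 increase thus rests on 1 spot of 1 probe, with the probe of 10 spots below background on the same array.

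ABCC3, an exporter of organic anions and glucuronides, was well above background at both of its probes on the treated arrays and on neither untreated array. Probe A_33_P3298024 had signals of 3.85, 55.5, 3.78 and 51.7, with bounds of 2.85-fold and 2.27-fold. Probe A_23_P207507 had signals of 3.12, 100.6, 3.09 and 40.4, with bounds of 5.17-fold and 1.77-fold. At both probes ABCC3 was detected with tetracycline alone, while the 2-fold call in TR15-MeTA5 rests on the first of them.

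ABCC4, which exports cyclic nucleotides and prostaglandins, moved the other way. Its signals were 671, 119, 212 and 282 in the same order. It was 7.12-fold lower with tetracycline in TR9-MeTA14 (log2 -2.83) and 1.11-fold lower in TR15-MeTA5 (log2 -0.15). The change in TR15-MeTA5 was within 2 technical SD and was 0.21 with spike-in scaling. The order of the levels was TR9-MeTA14 -Tet, then both TR15-MeTA5 arrays, then TR9-MeTA14 +Tet. Of the 15075 genes compared in TR9-MeTA14, 1.19% were further down.

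ABCC1, the multidrug resistance-associated glutathione-conjugate exporter, had signals of 970, 823, 690.2 and 899. Its log2 changes were -0.57 in TR9-MeTA14 and -0.18 in TR15-MeTA5, under 2-fold in both, and the latter was 0.18 with spike-in scaling. ABCG2, the breast cancer resistance protein, had signals of 26.1, 39.0, 20.0 and 31.8. Its log2 changes were 0.25 and 0.11, within the technical SD of 0.261, and no neighbouring arrays in the order of its levels were more than 2 technical SD apart.

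**Figure D3:**
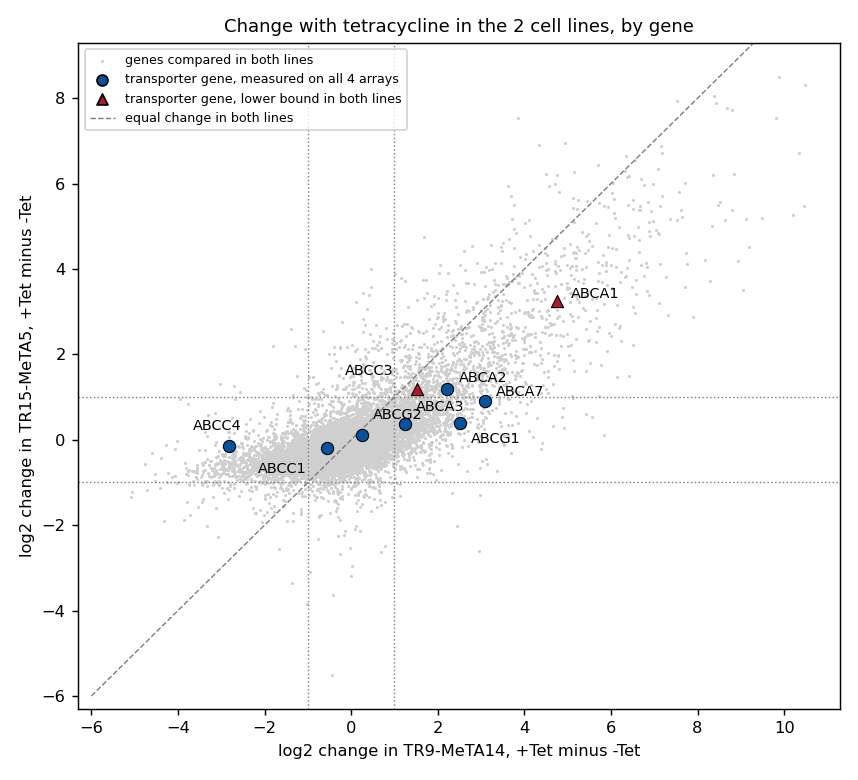
Log2 change with tetracycline in TR9-MeTA14 (horizontal axis) and TR15-MeTA5 (vertical axis) for every gene compared in both lines (grey) and 9 transporter genes (labelled), with triangles for lower bounds and dotted lines at 2-fold. The measured increases ABCA2, ABCA3, ABCA7 and ABCG1 lie below the line of equal change, and ABCC4 lies far to the left at -2.83 and -0.15.

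The lines differed in how far the transporter genes moved. All 7 genes that were measured on all 4 arrays had a change further from 0 in TR9-MeTA14 than in TR15-MeTA5, as had 73.2% of the 12690 genes so measured. For ABCG2 both changes lay within the technical SD, and their order turned with spike-in scaling (0.36 and 0.47) and under both settings with quantile normalization. The fold in TR9-MeTA14 was 4.55 times that in TR15-MeTA5 for ABCA7, 4.37 times for ABCG1 and 2.01 times for the brighter ABCA2 probe. With 1 array per condition, the difference between the lines was not tested.

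Before treatment, none of the 7 transporter genes measured on both untreated arrays differed 2-fold between the lines, where 8.17% of 13788 genes were higher and 5.19% lower in TR15-MeTA5. ABCC4, at log2 -0.91, and ABCG1, at -0.70, were lower in TR15-MeTA5 and came closest. With spike-in scaling, ABCA3, ABCC4 and ABCG1 were more than 2-fold lower, at -1.40, -1.95 and -1.73, and the signs for ABCA2, ABCA7, ABCC1 and ABCG2 turned from positive to negative. With tetracycline, 1 of the 10 was at least 2-fold higher in TR15-MeTA5 and 4 were lower, where 14.2% and 10.4% of 14609 genes were. ABCC4 was the higher one, by 3.41-fold. ABCG1 was lower by 7.07-fold, ABCA7 by 4.12-fold, ABCA3 by 2.34-fold and ABCB1 by at least 3.64-fold. These differences between the treated lines were not recomputed with spike-in scaling, so how far they depend on the scaling was not tested.

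The other ABC genes were set beside these, in a list of 37 genes of which 36 had a probe and 20 could be compared in both lines. Of those 20, 0 were at least 2-fold higher and 0 lower in both lines, while the shares over all genes were 8.21% and 0.838%. By line, 3 were higher and 6 lower of 23 compared in TR9-MeTA14, where 16.8% and 15.1% of all genes were. In TR15-MeTA5, 1 was higher and 0 lower of 21, against 9.78% and 2.21% of all genes. The largest decrease in TR9-MeTA14 was that of TAP2, a peptide transporter of antigen presentation, named after its values were seen, with log2 changes of -3.10 and -0.54. With the lines taken as replicates and line as a block, limma called 0 of the 22 tested higher and 0 lower, and 2 had an unadjusted p below 0.05. Over all 14458 genes, limma called 3.22% higher and 0.0138% lower, with 1 residual degree of freedom. Of these 14458, 3107 had an unadjusted p below 0.05.

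Of 29 genes of sterol efflux and the LXR pathway, 27 could be compared in both lines, and 3 were at least 2-fold higher (11.1%) and 1 lower (3.70%) in both, against 8.21% and 0.838% of all genes. CYP27A1, which makes the LXR ligand 27-hydroxycholesterol, had signals of 3.72 and 844 in TR9-MeTA14 and of 3.63 and 1104 in TR15-MeTA5, without and with tetracycline. The bounds were log2 5.44 and 5.60. APOE, the apolipoprotein that accepts exported lipid, had signals of 484 and 2721 in TR9-MeTA14 and 287 and 3009 in TR15-MeTA5. Its log2 changes were 2.16 and 2.82. PLTP, the phospholipid transfer protein of plasma, had bounds of 1.63 and 1.08.

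The lower gene was STARD4, an intracellular sterol carrier, with a log2 change of -4.31 or further in TR9-MeTA14, where the treated array was below background, and of -1.89 in TR15-MeTA5. In limma, CYP27A1 (adjusted p = 0.0139) and APOE (adjusted p = 0.0386) rose, 2 of the 27 tested where 3.22% of all genes did. For CYP27A1 the fit used its untreated signals, both below background, and gave a log2 change of 7.59, larger than both bounds. None of the 27 fell, and 11 had an unadjusted p below 0.05 in either direction, against 3107 of all 14458 genes. With probes required to be above background on all 4 arrays, 0 list genes were called higher, so APOE, which passes that filter, lost its call. The receptors themselves, NR1H2 and NR1H3, had log2 changes of 0.37 and 0.39 in TR9-MeTA14 and of -0.26 and -0.17 in TR15-MeTA5. Their partner RXRA had log2 changes of 1.15 and 0.62, RXRB of -0.05 and -0.21 and RXRG of -1.61 and -0.17. The list's median log2 change was -0.14 in TR9-MeTA14 and -0.26 in TR15-MeTA5, where those of all genes were -0.06 and -0.16.

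Of 22 drug uptake carriers and xenobiotic receptors, 8 could be compared in both lines, and 0 were higher and 0 lower in both. The shares over all genes were 8.21% and 0.838%. By line, 0 were at least 2-fold higher and 1 lower of 12 compared in TR9-MeTA14, against 16.8% and 15.1% of all genes. In TR15-MeTA5, 1 was higher and 2 lower of 10, against 9.78% and 2.21% of all genes. In limma, 0 of 11 were called higher and 0 lower, with 1 at an unadjusted p below 0.05, against 3107 of all 14458 genes. The median log2 changes of this list were 0.11 and 0.03.

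**Figure D4:**
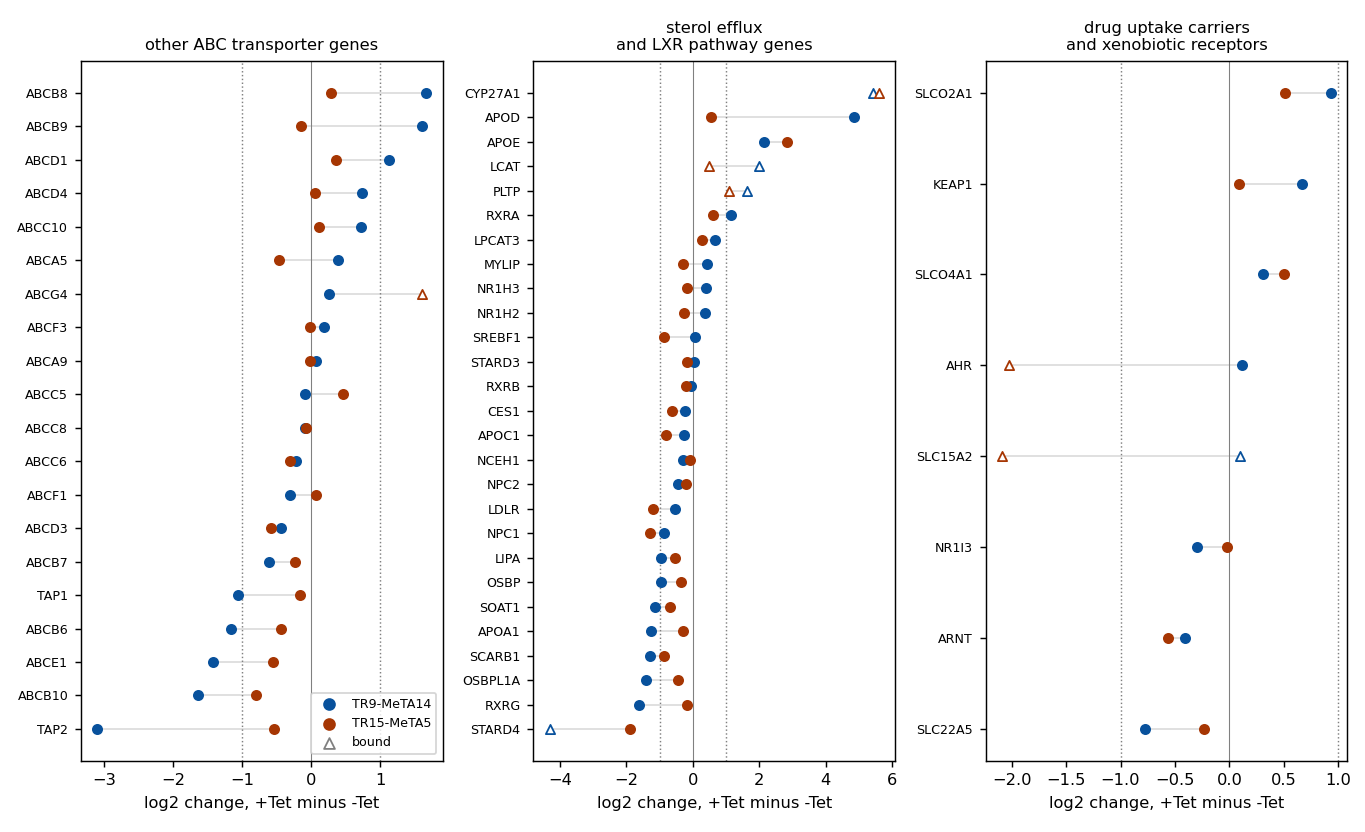
Log2 change with tetracycline in TR9-MeTA14 (blue) and TR15-MeTA5 (brown) for the genes of the 3 lists that could be compared in both lines, with open triangles for bounds and dotted lines at 2-fold. CYP27A1, APOE and PLTP lie right of the 2-fold line in both lines, STARD4 lies left of it in both, and the other ABC genes do neither.

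ABCA1 is abundant in macrophages, so genes used as leukocyte markers are given beside it, although the cultures were LNCaP-derived cell lines. Of the 4 markers PTPRC, CD68, CD14 and CSF1R, tetracycline came with 2-fold or greater increases of 3 in TR9-MeTA14 and 2 in TR15-MeTA5, where 16.8% and 9.78% of all genes passed. CD14 had log2 changes of 3.27 and 2.25, and CD68 of 2.52 and 1.32. The defining leukocyte gene PTPRC had changes of 0.24 and -0.62 at its brightest probe, with the 3 other probes below background on the untreated arrays. The signals of the 4 markers summed to 366 and 2371 in TR9-MeTA14 and to 509 and 1735 in TR15-MeTA5, without and with tetracycline. None of the 4 markers was below background on all arrays. Their part in the ABCA1 result was not tested.

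How far the values depend on the scaling was read from other settings. The brighter ABCA1 probe stayed past 2-fold in both lines under every setting that gave it a value, with log2 changes from 2.46 to 6.88 in TR9-MeTA14 and from 1.88 to 4.44 in TR15-MeTA5. The extremes came from normexp background correction with quantile normalization at the low end and from plain ratios without a filter at the high end. With normexp, the log2 changes of ABCB1 (0.73) and ABCC3 (0.36) in TR9-MeTA14 and of ABCA2 (0.97) and ABCC3 (0.48) in TR15-MeTA5 fell under 2-fold. So did those of the other ABCA1 probe (0.94) and the other ABCC3 probe (0.87) in TR9-MeTA14.

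**Figure D5:**
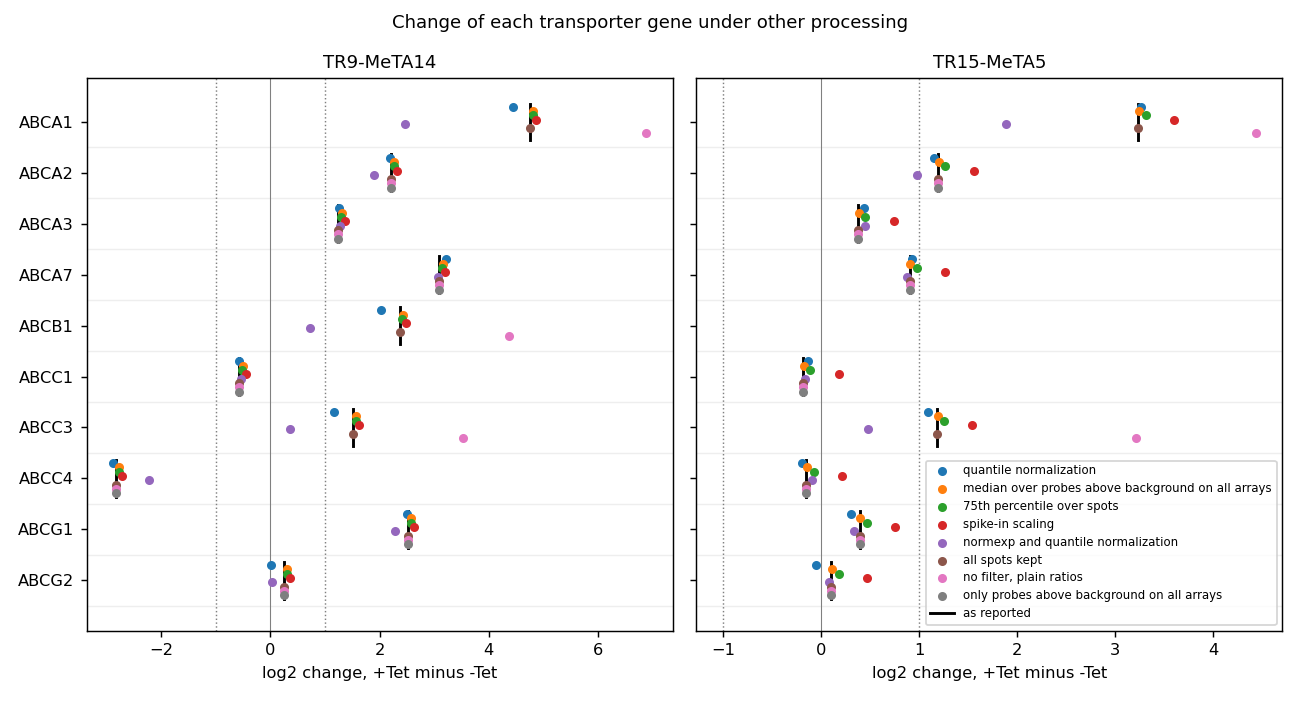
Log2 change with tetracycline (horizontal axis) of the probe standing for each transporter gene, by line (panels), as reported (black bars) and under each other setting (coloured points), with dotted lines at 2-fold. Genes below background without tetracycline, ABCA1, ABCB1 and ABCC3, spread widely by setting, while ABCA3 and ABCA7 in TR9-MeTA14 stay near 1.24 and 3.09.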

How the data were processed

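Cy3-labeled cRNA of TR9-MeTA14 and TR15-MeTA5 cells, with or without tetracycline, was applied to 4 whole-genome Agilent arrays. Their format has 4 arrays per slide. The authors deposited intensities for all spots from Agilent Feature Extraction (10.7.3.1 per the file headers, 9.5.1 per the submitters' processing notes). The processed signal is background-subtracted within the array without normalization across arrays. The deposited series table gave identical intensities on 44495 of 44495 spots. From the deposited intensities, log2 processed signals were calculated, outlier spots (255 to 344 per array) were left out, spots of a probe were averaged, and each array's 75th percentile over probes was subtracted. It lay between 367 and 777 in signal, and scaling divided the ratios with over without tetracycline by 1.26 in TR9-MeTA14 and 1.48 in TR15-MeTA5. This leaves medians over all probes of -0.15 and -0.19. A probe was taken as well above background where Feature Extraction flagged most of its spots so. Where the dimmer array was not, the bound is taken against the higher of its own signal and that array's lowest signal with the flag (13.9 to 19.2). No change is given when neither array had the flag or the bound was under 1. The probe with the highest mean log2 signal stood for a gene. The array number limits the precision. Probes were named through accessions in a RefSeq table (GRCh38.p14), which paired 25422 probes (74.5%) with 1 gene, and used for no array coordinates.

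The cut-off of 2-fold is that of the study's methods. limma 3.58.1 in R 4.3.3, with a block for line, a trend on intensity and Benjamini-Hochberg adjusted p-values over all probes above background on 2 or more arrays, was used for the lists of other genes, after a check on simulated data. It treats the lines as replicates, and the block removes the difference in level between them. Its p-values rest on how the tetracycline change differs between the lines and on a variance borrowed from all tested probes. They do not measure the spread between cultures of a line. The transporter genes, the lists and the rules were chosen with earlier results of these data known. Named were all probes of the transporter genes, list genes at least 2-fold changed in both lines, at most 6 per list and direction, and the 3 genes nearest to ABCA1. Some luminal markers and a sterol list gene are not reported here. The LXR receptors, their partners and TAP2 were named in addition, after their values were seen. Python 3.11.15 with numpy 2.4.6, pandas 2.3.3 and matplotlib 3.10.9 was used for the rest.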

Additional observations from a re-analysis of the deposited data

Results flagged for a closer look

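The dimmer ABCA2 probe, A_33_P3251672, moved in opposite directions in the lines, with a log2 change of 0.20 in TR9-MeTA14 and -0.19 in TR15-MeTA5. Both values were smaller than the technical SD of 0.261 at its signals, the former was -0.02 after quantile normalization, and the difference between the lines was not tested.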

How the results depend on the processing

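The 33 log2 values of the transporter probes (changes by line and differences between untreated lines) were recomputed under each other setting of scaling, background correction, spots and filter. None of the values past 2-fold changed sign. Scaling on 8 spike-in probes puts the medians over probes above background on all 4 arrays at -0.04 and 0.18. It moved 25 of the 33 values by more than the technical SD, turned 8 signs and put 6 more past 2-fold. Normexp with quantile normalization moved 18 and kept 7 of 13 past 2-fold. The number of transporter genes higher in TR9-MeTA14 was 4 in place of 7 with probes required to be above background on all 4 arrays. Those higher in TR15-MeTA5 and in both lines were 1 in place of 3 under that filter, with normexp and at a cut-off of 3-fold. Among the other ABC genes, 1 in place of 0 was lower in both lines with plain ratios and at 1.5-fold. Among sterol genes, 1 in place of 3 was higher under the filter on all 4 arrays, and 0 and 4 in place of 1 were lower with that filter and at 1.5-fold. Among uptake carriers, 1 in place of 0 was higher with plain ratios. List genes that limma called higher numbered 0 in place of 2 under that same filter and 3 with spike-in scaling. Requiring that filter leaves fewer probes to test and takes out CYP27A1, whose untreated signals were below background. The cause of the moves was not tested.

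No replicate could be left out, since each condition has 1 array. Signals near background limit ABCA1, ABCB1 and ABCC3 without tetracycline to bounds, and ABCG2 and the dimmer ABCA2 probe lie where the technical SD is 0.261.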
